A study of Mus musculus with 16 samples.

Results

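Aph1b, Gm10647, Car12, Extl1 and Slc30a2 are 5 of the 47517 rows of a gene count table from mouse cortical bone, and they lie at 2 loci. On chromosome 9 Aph1b lies just beyond the end of Car12, and Gm10647 lies on its other side. On chromosome 4 Extl1 lies just beyond the end of Slc30a2. The rows were chosen by measured values: Aph1b on its loading response, Extl1 and Gm10647 on their difference between genotypes. Car12 and Slc30a2 were added as their neighbours. The values behind those choices are therefore given as descriptions, with no test: for Aph1b loaded against non-loaded limbs, and for Extl1 and Gm10647 NT3 against Ctrl. All 5 rows were found.

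The libraries come from tibial cortical bone of 8 male mice aged 16 weeks, with 4 mice labelled NT3-Cre+ (NT3 here) and 4 labelled Ctrl. In each mouse the right tibia was loaded by axial compression on 9 days at 1200 cycles a day, with 10.0 N in NT3 and 8.7 N in Ctrl to reach the same -2000 microstrain, and the left tibia was not loaded. This gave 4 groups of 4 libraries: loaded NT3, non-loaded NT3, loaded Ctrl and non-loaded Ctrl. Bone was collected 4 hours after the last bout. By the series title, NT3 mice have NF-kB inducing kinase (NIK) switched on in cells of the osteoblast lineage. The sources used here do not give the allele, the Cre driver or what the Ctrl mice carry. Each group's replicates are separate mice. Muscle was stripped off and marrow spun out, but cells of both and of vessels can remain, and in such bulk samples fewer cells of a type and less RNA per cell cannot be told apart.

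Aph1b encodes a subunit of gamma-secretase, the membrane protease that cuts Notch receptors and the amyloid precursor protein inside the membrane. Rodents carry a near copy of it, Aph1c, close by. Car12 encodes a carbonic anhydrase anchored in the cell membrane with its active site outside the cell. Such enzymes interconvert carbon dioxide and bicarbonate and so set the acidity around cells. Extl1 encodes a member of the exostosin family of glycosyltransferases, which build heparan sulfate, the sugar chain that holds growth factors at cell surfaces and in matrix. Slc30a2 encodes the zinc transporter ZnT2, which moves zinc out of the cytosol into vesicles and is best known from the mammary gland. Gm10647 is a predicted gene with no described role.

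The coordinates are those of GENCODE M21 on GRCm38, the assembly also called mm10. Car12 (ENSMUSG00000032373.15) spans chr9:66713686-66766845 on the plus strand. Aph1b (ENSMUSG00000032375.15) spans chr9:66775202-66795490 on the minus strand, so it points towards Car12, with 8.4 kb between them. Its last exon, chr9:66775202-66779380, lies nearest to Car12 and holds 4179 of its 5163 exonic bases (80.9%). Gm10647 (ENSMUSG00000074232.2) is a single exon at chr9:66797039-66799074 on the plus strand, 1.5 kb from Aph1b, and 389 of its 2036 bases are also exon of the antisense gene BC050972 on the minus strand. Slc30a2 (ENSMUSG00000028836.14) spans chr4:134343181-134354484 on the plus strand and Extl1 (ENSMUSG00000028838.11) chr4:134356372-134383850 on the minus strand, 1.9 kb apart and pointing at each other. The last Extl1 exon, chr4:134356372-134357830, is the end nearest to Slc30a2. No exon of Aph1b, Car12, Extl1 or Slc30a2 overlapped an exon of another gene on the opposite strand by 20 bases or more. Among placed rows averaging at least 20 fragments, 68.5% of 3932 did so, against 12.2% of 41213 other rows. The strand setting of the counting was not given, and the files do not say where in a row its fragments fell, so a row may hold RNA of either strand over its exons.

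The sequence just upstream of the start was read for the rows that led the loading and genotype differences, and for Car12, whose end faces Aph1b. RefSeq (GRCm38.p6) gave promoter windows of 250 bases before to 50 after the start for 4 of the 5 genes, all except Gm10647. The bases of each window that come before its first exonic base are printed, 5′ to 3′ on the strand of the gene. The Extl1 stretch ends at the start of the shorter transcript, inside an intron of a longer one. Capitals mark a match to the NF-kB consensus in Extl1 and to TGTGGT, the Runx core, in Car12.
Extl1 (chr4:134372559-134372797, minus strand): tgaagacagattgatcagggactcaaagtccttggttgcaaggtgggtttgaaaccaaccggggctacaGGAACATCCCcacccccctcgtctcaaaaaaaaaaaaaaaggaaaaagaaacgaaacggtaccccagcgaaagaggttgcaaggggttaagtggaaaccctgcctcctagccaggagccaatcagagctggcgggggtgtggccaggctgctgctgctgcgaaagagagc
Aph1b (chr9:66795491-66795673, minus strand): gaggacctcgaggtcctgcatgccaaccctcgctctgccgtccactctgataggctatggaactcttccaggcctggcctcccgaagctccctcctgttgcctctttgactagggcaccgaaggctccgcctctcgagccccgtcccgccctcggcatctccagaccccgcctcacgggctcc
Car12 (chr9:66713436-66713685, plus strand): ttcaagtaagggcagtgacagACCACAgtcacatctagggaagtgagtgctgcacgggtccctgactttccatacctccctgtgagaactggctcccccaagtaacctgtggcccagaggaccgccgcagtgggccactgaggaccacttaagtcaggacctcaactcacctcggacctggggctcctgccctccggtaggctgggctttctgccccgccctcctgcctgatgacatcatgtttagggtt

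Both strands of the 4 whole windows were searched for 6 motifs. These were the NF-kB consensus by name, the AP-1 site TGANTCA, the cyclic AMP response element TGACGTCA, the metal response core in either of its forms, the TATA box as TATAAA, and the Runx core as above. The forms of the metal response core were TGCGCNC and, with a different middle base, TGCACNC. No searched motif overlapped another in these windows. The Extl1 window held 1 NF-kB match, at position -181 from the RefSeq start on the opposite strand, and 8.46% of 32851 promoter windows held at least 1. The Slc30a2 window, which lies over exons of other Slc30a2 starts and is not printed, held the metal response core at -214 and -200 and the Runx core at -60. The metal response core occurred in 25.7% of all windows and the Runx core in 16.8%. The Car12 window held the Runx core at -229, and the Aph1b window, with 69.3% G and C, held none of the 6. The AP-1 site, the cyclic AMP response element and the TATA box, in 7.81%, 1.79% and 13.6% of all windows, were in none of the 4. A match is a run of letters and not a measured binding site.

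Each library held 758394 to 1064391 counted fragments, so 1 fragment is about 1 CPM (a count scaled to the library total). These are the fragments assigned to rows, not the reads sequenced. The NIK gene, Map3k14, had only 1 to 9 fragments in a library, too few to check the genotype labels. Marker lists for other cells were summed in each library. Marker rows, too, may hold RNA of either strand over their exons, so a sum need not measure its cell type. Among the muscle markers, for example, the Atp2a1 row lies opposite exons of Rabep2 and the Ttn row opposite Gm13938. Osteoblast marker rows summed to 689 to 932 CPM in loaded NT3, 466 to 634 in non-loaded NT3, 716 to 1160 in loaded Ctrl and 264 to 541 in non-loaded Ctrl. The 11 skeletal muscle markers, all detected, ranged over 332 to 599, 397 to 772, 329 to 653 and 363 to 640 CPM in the same groups.

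Aph1b fragments were few without loading and many with it. Loaded NT3 tibiae held 211, 58, 30 and 57 Aph1b fragments in mice 1 to 4, and their non-loaded partners held 4, 9, 1 and 6. Loaded Ctrl tibiae held 213, 141, 286 and 129 fragments, and their partners 1, 11, 10 and 7. All 8 mice had more in the loaded limb, and in neither genotype did the ranges of loaded and non-loaded limbs overlap. TMM-scaled levels averaged 103 ± 80.1 CPM in loaded NT3 and 5.36 ± 3.59 in non-loaded NT3, and 221 ± 108 CPM in loaded Ctrl and 7.71 ± 4.93 in non-loaded Ctrl (mean ± SD, n = 4). The fitted loading response was 4.16 log2 units in NT3 (SE 0.44, 17.9-fold) and 4.76 in Ctrl (SE 0.38, 27.1-fold). By size it ranked 1 among the 7192 rows fitted, in each genotype. In NT3, 0.334% of rows were called higher with loading and limbs did not overlap in 3.5%; in Ctrl the shares were 3.07% and 8.09%. Without NT3 mouse 1, whose loaded limb was the highest of its group, the NT3 response was 3.47. The osteoblast marker sums given above were also higher in loaded limbs. Of the 11 marker rows, 7 were fitted, with 1 called higher with loading in NT3 and 4 in Ctrl, and 1 of the 11 was at 0 in all non-loaded NT3 limbs. In Ctrl the 8 erythroid marker rows also summed higher, to 140 to 175 CPM in loaded and 87.0 to 129 in non-loaded limbs, without overlap. In NT3 they ran from 99.5 to 155 CPM in loaded and 126 to 145 in non-loaded limbs. Their most abundant row, Alas2, which encodes an enzyme of heme synthesis and lies opposite exons of Apex2, was called higher with loading in Ctrl (0.54, SE 0.16, edgeR adjusted p = 0.0424). Of these 8 rows, 2 were at 0 in all loaded NT3 limbs and 1 each in all non-loaded NT3 and loaded Ctrl limbs. The 6 osteocyte marker rows summed to 136 to 271 CPM in loaded and 134 to 255 in non-loaded NT3, and to 221 to 304 in loaded and 188 to 262 in non-loaded Ctrl. Among them Dmp1, a mineral matrix protein gene, was called higher with loading in Ctrl (0.72, SE 0.17, edgeR adjusted p = 0.00452). In NT3 it was not called (0.59, SE 0.18, adjusted p = 0.167). Mepe did not rise, at -0.03 in Ctrl (SE 0.18, edgeR adjusted p = 0.961) and -0.7 in NT3 (SE 0.19, adjusted p = 0.106). The median loading value of the 3 osteocyte rows fitted was -0.03 in Ctrl and -0.7 in NT3. The part of these cell types in the Aph1b values was not tested.

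**Figure D1:**
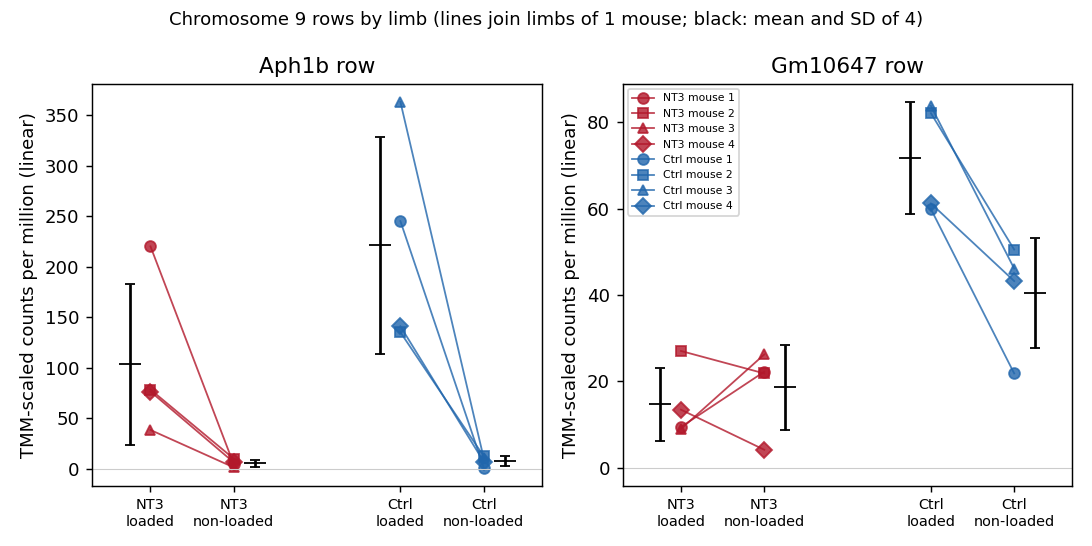
TMM-scaled CPM (linear axis) of the Aph1b and Gm10647 rows by genotype and limb. Lines join the limbs of 1 mouse, and black marks give the mean and SD of 4 mice. The 8 loaded limbs lie at 38.3 CPM or more for Aph1b, above the 8 non-loaded limbs, while for Gm10647 the loaded Ctrl limbs stand highest and the loaded NT3 limbs lie at 27.0 CPM or less.

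These Aph1b loading values chose the row. Whether its level differed between genotypes was not part of that choice. The same limbs entered both, however, so the genotype tests of Aph1b are not independent of it. In loaded limbs Aph1b stood at -1.06 log2 units in NT3 relative to Ctrl (SE 0.60), which did not pass edgeR's quasi-likelihood test (adjusted p = 0.565, between 0.184 and 0.797 over the alternatives). In NT3, 3 limbs lay at 38.3 to 78.3 CPM, but mouse 1, at 220 CPM, was among the Ctrl limbs, which ran from 135 to 363 CPM. Without that mouse the value was -1.76, still not called. In this comparison 161 of 6080 rows were called (2.65%), 1.32% higher and 1.33% lower. In non-loaded limbs Aph1b held too few fragments for the fit. NT3 minus Ctrl was -2.35 CPM there (exact permutation test, two-sided, p = 0.429; 4 mice against 4 cannot go below 0.0286). Leaving out 1 mouse moved this between -4.53 CPM without Ctrl mouse 1 and -0.802 without Ctrl mouse 2. It was -1.42 without Ctrl mouse 3, and -3.83 and -0.976 without NT3 mice 2 and 3. The loading responses of the genotypes differed by -0.60 log2 units, NT3 minus Ctrl (SE 0.73). It was -1.29 and -0.03 without NT3 mice 1 and 2, and -0.19 and -1.11 without Ctrl mice 1 and 2. This was not tested, because the loading response chose the row. A difference was called in 10 of 7192 rows (0.139%), all lower in NT3.

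Aph1b shares sequence with Aph1c, which lies on the same strand at chr9:66814994-66834726. Of the 5028 windows of 75 bases, the read length, along the longest Aph1b transcript in GENCODE, 585 (11.6%) also occur in Aph1c transcripts, so reads there could have been dropped or split between the genes. The Aph1c row did not show the loading pattern of Aph1b. It held 4 to 9 fragments in loaded NT3, 6 to 17 in non-loaded NT3, 22 to 34 in loaded Ctrl and 12 to 39 in non-loaded Ctrl. Its loading response was -0.62 in NT3 (SE 0.44, edgeR adjusted p = 0.841) and 0.06 in Ctrl (SE 0.32, adjusted p = 0.961). The Aph1c row fell instead with genotype. In loaded limbs it was 4.0-fold lower in NT3, at 7.60 ± 1.88 CPM against 31.4 ± 8.01 in Ctrl (log2 -2.0, SE 0.38, edgeR adjusted p = 0.00125), and the groups did not overlap. Of all rows fitted in that comparison, 1.33% were called lower and 7.52% had groups that did not overlap. In non-loaded limbs the value was -1.33 (SE 0.37), which did not pass (edgeR adjusted p = 0.132), and the groups overlapped. Without Ctrl mouse 1 it did pass, at -1.53 (adjusted p = 0.0201; between 0.0201 and 0.498 over the alternatives). The Aph1c row shares 28 exonic bases with the antisense gene Gm17098.

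The Gm10647 row was lower in NT3, most plainly in loaded limbs. Loaded NT3 tibiae held 9, 20, 7 and 10 fragments and loaded Ctrl tibiae 52, 86, 66 and 56. Non-loaded NT3 tibiae held 21, 20, 21 and 4 and non-loaded Ctrl tibiae 19, 45, 44 and 44. In loaded limbs the groups stood apart, with the highest NT3 limb below the lowest Ctrl limb. In non-loaded limbs they overlapped through Ctrl mouse 1. Levels were 14.7 ± 8.45 CPM in NT3 and 71.7 ± 13.0 in Ctrl with loading, and 18.6 ± 9.86 and 40.4 ± 12.8 CPM in NT3 and Ctrl without it. The NT3 to Ctrl value was -2.30 log2 units in loaded limbs (SE 0.30, 4.93-fold lower) and -1.15 in non-loaded limbs (SE 0.38, 2.21-fold lower). The loaded value ranked 1 by size among falls in 6080 rows and the non-loaded value 32 among 6220. Both are descriptions, since they chose the row. In the loaded comparison 7.52% of rows had groups that did not overlap.

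Loading was not what chose Gm10647, but the same limbs entered the genotype difference that did. Its loading values and their tests are therefore not independent of that choice. Its count was higher in the loaded limb of 4 of 4 Ctrl mice, at 0.85 log2 units (SE 0.27), and the ranges of the limbs did not overlap, which again is read beside the 8.09% of all rows. The value narrowly missed the threshold in edgeR (adjusted p = 0.0586, between 0.0298 and 0.299 over the alternatives), and passed only without NT3 mouse 4 of the alternatives run. The background was 293 of 7192 rows called (4.07%). In NT3 mice it went up in 2 and down in 2 (log2 -0.33, SE 0.37, edgeR adjusted p = 0.920), where 30 of 7192 rows were called (0.417%), 0.0834% lower. The NT3 response minus the Ctrl response was -1.18 (SE 0.45). As this is also the genotype difference in loaded limbs minus that in non-loaded limbs, both used in the choice, no test is given.

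BC050972, the antisense gene that shares 389 bases with Gm10647, gave smaller genotype values that did not pass. Its row held 15 to 25 fragments in loaded NT3, 6 to 25 in non-loaded NT3, 13 to 39 in loaded Ctrl and 8 to 42 in non-loaded Ctrl. NT3 to Ctrl values were -0.49 in loaded limbs (SE 0.33, edgeR adjusted p = 0.587) and -0.78 in non-loaded limbs (SE 0.41, adjusted p = 0.699). Whether fragments in the shared bases were counted for either row cannot be told from the files.

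Car12, the neighbour downstream of Aph1b, was close to undetected. Loaded NT3 tibiae held 2, 3, 0 and 2 fragments, non-loaded NT3 tibiae 1, 2, 0 and 2, loaded Ctrl tibiae 0, 3, 8 and 4 and non-loaded Ctrl tibiae 1, 1, 3 and 2. Its counts were below the expression filter in every comparison. Loaded minus non-loaded averaged 1.69 CPM over the 8 mice (exact sign-flip permutation test, two-sided, p = 0.0625; the smallest possible is 0.00781), up in 3 of 4 NT3 mice, with 1 at 0 in both limbs, and in 3 of 4 Ctrl mice. NT3 minus Ctrl was -2.15 CPM in loaded limbs (exact permutation p = 0.400) and -0.521 in non-loaded limbs (p = 0.514). These rest on single mice: the loaded value was -3.60, -0.209 and -1.41 without Ctrl mice 1 and 3 and NT3 mouse 3, and the non-loaded value -0.0873 and -0.0799 without Ctrl mouse 3 and NT3 mouse 3, and -0.807 without NT3 mouse 2. The Car12 row has a length of 4539 bases in the files, against 7597 exonic bases in GENCODE, and the other members have the same length in both. Per kb of row length in the files, loaded limbs averaged 20 ± 15.5 CPM of Aph1b and 0.485 ± 0.371 CPM of Car12 in NT3, and 42.8 ± 20.8 and 0.958 ± 0.942 CPM in Ctrl. The Aph1b row thus stood far above the row of its neighbour with loading. Without loading the levels per kb were 1.04 ± 0.695 for Aph1b and 0.291 ± 0.224 for Car12 in NT3, and 1.49 ± 0.955 and 0.406 ± 0.209 in Ctrl.

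The ratio of Aph1b to Car12 fragments was also taken within each library, as log2 with 0.5 added to both counts. It was 5.23 ± 1.11 in loaded and 1.62 ± 0.23 in non-loaded NT3 limbs, and 6.0 ± 1.84 in loaded and 1.53 ± 1.20 in non-loaded Ctrl limbs. The loaded limbs again carry the choice of Aph1b. Between genotypes, NT3 minus Ctrl was -0.77 in loaded limbs (exact permutation p = 0.629) and 0.09 in non-loaded limbs (p = 0.857), and with Car12 counts of 0 to 8 either could hide a large difference.

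**Figure D2:**
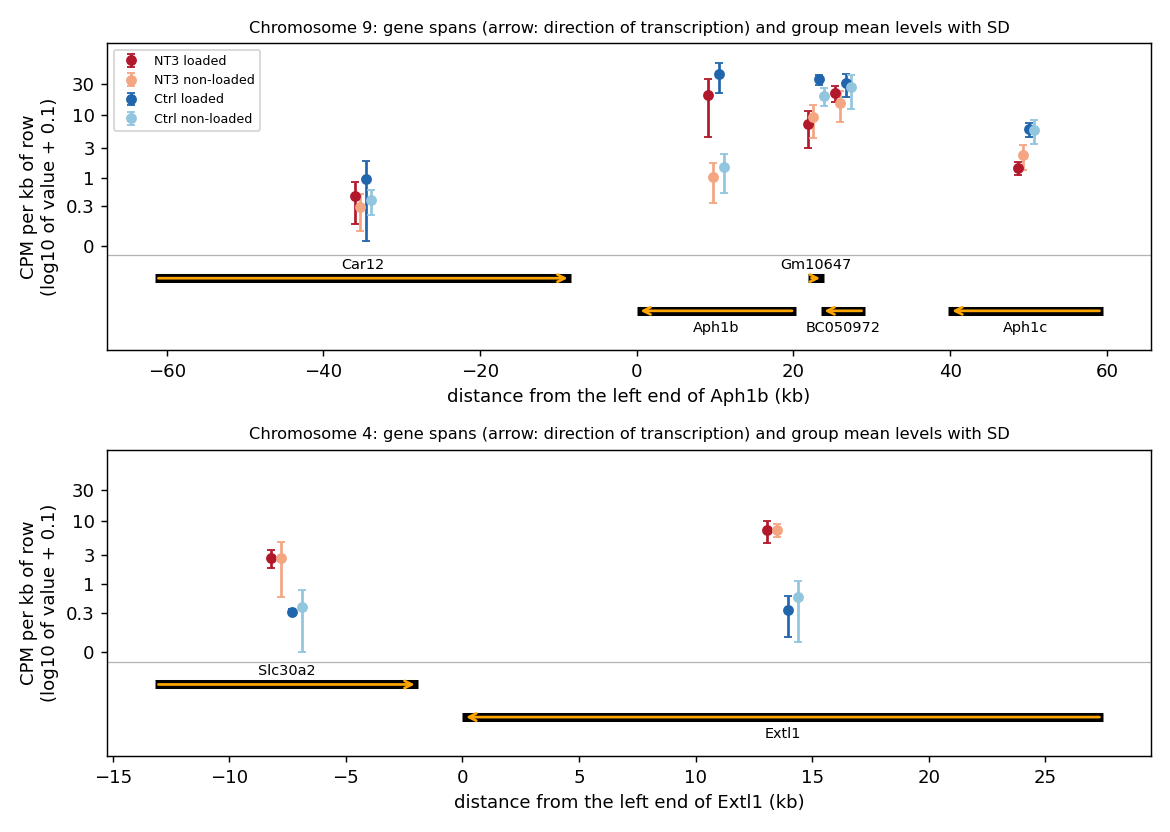
Gene spans on chromosomes 9 and 4 against distance in kb from the left end of Aph1b or Extl1, with arrows for the direction of transcription. Points above each gene give the group mean CPM per kb of row with SD (n = 4; log10 of the value plus 0.1), at small offsets along the axis. With loading the Aph1b row averages 20 in NT3 and 42.8 in Ctrl while Car12 stays below 1, and on chromosome 4 both rows lie higher in NT3.

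The Extl1 row held fragments in every NT3 limb and few or none in Ctrl limbs, whether or not the limb was loaded. Which strand they came from is not known. Loaded NT3 tibiae held 19, 36, 25 and 20 fragments and loaded Ctrl tibiae 2, 0, 2 and 1. Non-loaded NT3 tibiae held 31, 30, 32 and 22 and non-loaded Ctrl tibiae 4, 4, 1 and 0. The 8 NT3 limbs together held 215 fragments and the 8 Ctrl limbs 14, and no NT3 limb came near a Ctrl limb. Levels were 31.8 ± 12.3 CPM in loaded NT3 against 1.48 ± 1.17 in loaded Ctrl, and 32.0 ± 7.16 CPM in non-loaded NT3 against 2.53 ± 2.35 in non-loaded Ctrl. The NT3 to Ctrl value was 4.37 log2 units in loaded limbs (SE 0.56) and 3.63 in non-loaded limbs (SE 0.49). In both comparisons it was the highest log2 value of all rows fitted, 6080 and 6220. In non-loaded limbs 0.418% of rows were called higher and 0.161% lower, and groups did not overlap in 3.94%. These values chose the row and carry no test. With 0 to 4 fragments in Ctrl limbs, the sizes rest on few counts: over the alternatives run they were 3.93 to 4.71 with loading and 3.21 to 4.10 without it.

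Loading was not part of the choice of Extl1, but the same limbs entered the genotype difference that was. The loading tests of Extl1 are therefore not independent of its choice. In NT3 limbs, where there were counts to compare, the loading response was -0.05 log2 units (SE 0.35, edgeR adjusted p = 0.994), with 2 mice up and 2 down. In Ctrl it was -0.73 (SE 0.82, adjusted p = 0.753), but with 0 to 4 fragments in each Ctrl limb that fit could show little. Over all 8 mice, loaded minus non-loaded was -0.644 CPM (exact sign-flip permutation p = 0.844).

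Slc30a2, the neighbour of Extl1, held few fragments but also more of them in NT3. Loaded NT3 tibiae held 5, 7, 9 and 9 fragments against 1 in each of the 4 loaded Ctrl tibiae. Non-loaded NT3 tibiae held 2, 14, 13 and 4 against 3, 1, 0 and 1 in Ctrl. The loaded groups did not overlap, which is read beside 7.52% of all rows fitted in that comparison. Among non-loaded limbs NT3 mouse 1 lay within the Ctrl range. NT3 minus Ctrl was 8.43 CPM in loaded limbs (9.55 ± 3.1 against 1.12 ± 0.131; exact permutation test, two-sided, p = 0.0286, the smallest that 4 mice against 4 can give). In non-loaded limbs it was 8.05 CPM (9.43 ± 7.36 against 1.38 ± 1.45; exact permutation p = 0.0571). With both limbs of a mouse averaged it was 8.24 CPM (exact permutation p = 0.0286). Leaving out any 1 Ctrl mouse gave p = 0.0571 in loaded limbs by the exact permutation test, and leaving out NT3 mouse 1 gave p = 0.0286 in non-loaded limbs. These p-values are not adjusted for the other rows of the table. Slc30a2 was taken as the neighbour of Extl1, which was chosen on the genotype difference in these same limbs. Its genotype tests are therefore not independent of that choice. Slc30a2 was below the expression filter in the genotype comparisons. In edgeR fits with no such filter its values were 2.92 (SE 0.88, adjusted p = 0.114) with loading and 2.67 (SE 0.77, adjusted p = 0.146) without it, so it was not called over the whole table.

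The loading response of Slc30a2 did not pass, at 0.20 log2 units in NT3 (SE 0.62, edgeR adjusted p = 0.985) and -0.20 in Ctrl (SE 1.12, adjusted p = 0.963). Ctrl limbs held only 0 to 3 Slc30a2 fragments each, too few for the Ctrl fit to show a change. Per kb of row, Extl1 stood above Slc30a2 in NT3, at 7.33 ± 2.83 against 2.68 ± 0.869 CPM with loading and 7.39 ± 1.65 against 2.65 ± 2.06 without it. In Ctrl both were below 1 CPM per kb. The log2 ratio of Extl1 to Slc30a2 fragments, with 0.5 added to both, was 1.66 ± 0.51 in loaded and 2.08 ± 1.19 in non-loaded NT3 limbs, and -0.03 ± 1.09 and 0.49 ± 1.5 in loaded and non-loaded Ctrl limbs. Loading changed it by -0.42 in NT3 (exact sign-flip permutation p = 0.625) and by -0.51 in Ctrl (p = 0.750). Neither could pass, since 4 mice cannot go below 0.125. Over all 8 mice the change was -0.47 (exact sign-flip permutation p = 0.445).

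**Figure D3:**
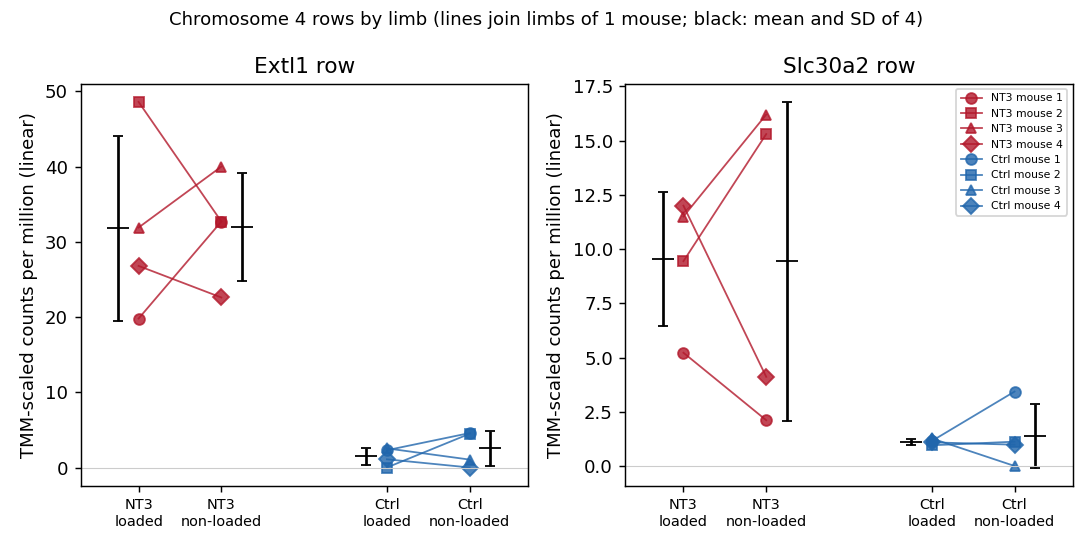
TMM-scaled CPM (linear axis) of the Extl1 and Slc30a2 rows by genotype and limb. Lines join the limbs of 1 mouse, and black marks give the mean and SD of 4 mice. All NT3 limbs lie at 19.8 CPM or more for Extl1 and all Ctrl limbs at 4.58 or less, and for Slc30a2 only the non-loaded limbs overlap between genotypes.

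Osteoclast marker sums barely stood apart between genotypes in the non-loaded limbs, at 19.6 against 19.5 CPM at the nearest, and overlapped in the loaded limbs. Their 8 rows summed to 12 to 27.0 CPM in loaded NT3 and 8.59 to 18.4 in loaded Ctrl, and to 19.6 to 43.1 CPM in non-loaded NT3 and 8.38 to 19.5 in non-loaded Ctrl. Of the 8 rows, 1 was at 0 in all loaded NT3 limbs and 2 in all non-loaded Ctrl limbs, and 0 could be fitted for genotype in either limb. Among all rows fitted in non-loaded limbs, 3.94% had groups that did not overlap. The part of such cells in the Extl1 and Slc30a2 values was not tested.

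By Pearson correlation of log2 CPM over the 16 libraries, the rows most like Aph1b among 4113 were Ddn (r = 0.933), Gm43948 (r = 0.926) and Prmt7 (r = 0.914). Ddn, whose exons lie opposite B130046B21Rik, averaged 173, 21.5, 413 and 41.6 CPM in loaded NT3, non-loaded NT3, loaded Ctrl and non-loaded Ctrl. Prmt7, whose exons lie opposite the sphingomyelinase gene Smpd3, averaged 462, 137, 626 and 99.5 CPM in these groups. The rows most like Extl1 were Rfc2 (r = 0.938), Tbc1d17 (r = 0.920) and D030025P21Rik (r = 0.906), which lie opposite exons of Lat2, of Akt1s1 and Il4i1, and of Ltbp2. Tbc1d17 averaged 263 CPM in loaded NT3 against 65.7 in loaded Ctrl, and 290 CPM in non-loaded NT3 against 79.3 in non-loaded Ctrl. Rfc2 differed less, at 375 against 191 CPM in loaded and 371 against 214 in non-loaded limbs. For D030025P21Rik the levels were 632 against 171 CPM in loaded and 609 against 162 in non-loaded limbs. The libraries share mice and groups, so these correlations are descriptions. Car12 and Slc30a2 averaged under 5 fragments and were not compared in this way.

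**Figure D4:**
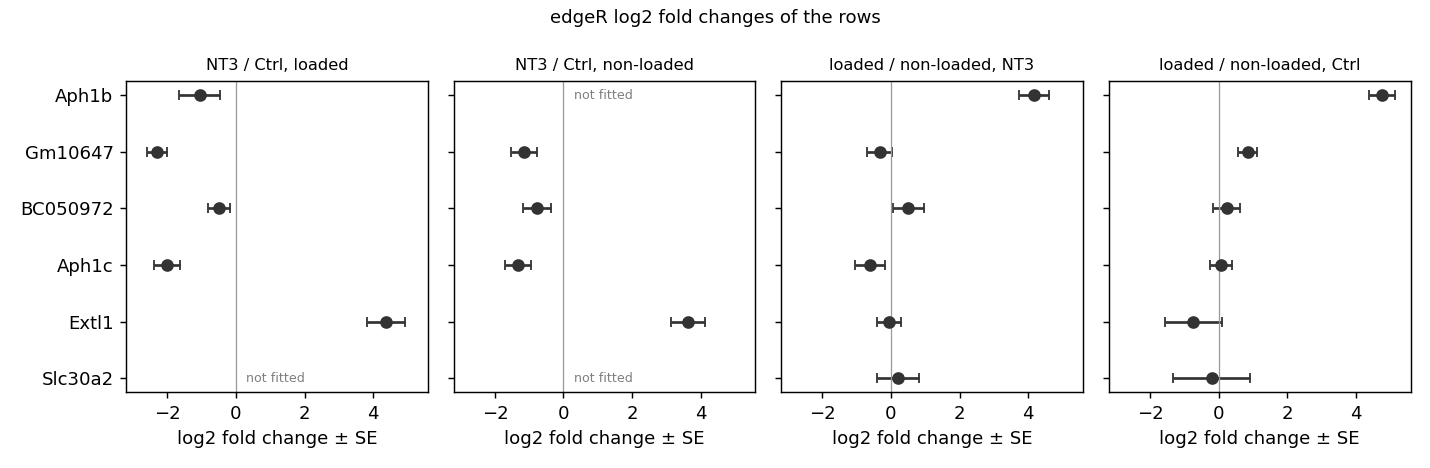
edgeR log2 fold changes with SE for the member rows that could be fitted and for BC050972 and Aph1c, in the 4 comparisons. Aph1b stands at 4.16 and 4.76 for loading in NT3 and Ctrl, Extl1 at 4.37 and 3.63 for genotype in loaded and non-loaded limbs, and Gm10647 and Aph1c lie at -2.30 and -2.0 for genotype in loaded limbs.

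Few other genes within 100 kb held enough fragments to compare. Around Aph1b the remaining rows were Rab8b, with 0 to 21 fragments, Ppp1r2-ps4 with 0 to 9 and Gm17098 with 0 to 3. Rab8b could be fitted for loading and did not pass in NT3 (-0.89, SE 0.62, edgeR adjusted p = 0.836) or in Ctrl (-0.09, SE 0.51, adjusted p = 0.965). Around Extl1 the kinase gene Pdik1l held 2 to 17 fragments, Trim63, Pafah2, Stmn1 and Gm23634 held 0 to 5 each, and Gm13195 and 1700021N21Rik held 0. Pafah2 lies on the other side of Extl1 from Slc30a2. Of the neighbours that were not members, Aph1c in loaded limbs was the only 1 called in a genotype comparison, among 2 fitted around Aph1b and 0 around Extl1.

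Few other genes of each pathway held enough fragments to fit. Of the 7 gamma-secretase rows, 3 could be fitted for loading. Besides the Aph1 rows this was Psenen, a subunit that completes the complex, with 0.00 in NT3 (SE 0.25, edgeR adjusted p = 1.0) and -0.11 in Ctrl (SE 0.24, adjusted p = 0.896). Psenen lies opposite exons of Gm49396 and U2af1l4. Of 19 rows of Notch receptors, ligands and targets, 5 could be fitted for loading and 0 were called in either genotype, beside 0.417% of all rows in NT3 and 4.07% in Ctrl, so that a count of 0 among 5 says little. In loaded limbs 3 could be fitted for genotype and Maml1, a coactivator of Notch, was called higher in NT3 (1.12, SE 0.31, edgeR adjusted p = 0.0466), with exons opposite Gm26542, beside 2.65% of all rows called. The receptor rows Notch4 (-0.19, SE 0.23) and Notch1 (-0.04, SE 0.29) did not pass there. Notch1 lies opposite exons of 0610009E02Rik and Gm13568.

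Among 16 carbonic anhydrase rows 3 could be fitted in each comparison and 0 were called. The most abundant were Car14, which lies opposite the gamma-secretase gene Aph1a, and Car9, opposite Gm12454. Car14 stood at 0.07 (SE 0.20) for genotype in loaded limbs and Car9 at 0.30 (SE 0.32). Among 26 heparan sulfate rows 3 could be fitted for genotype in each limb, 1 of them Extl1, which was chosen on that difference. The other 2 were not called. Sulf2, a sulfatase that trims sulfate from the chains and whose row lies opposite Ncoa3, stood at 0.05 with loading (SE 0.18, edgeR adjusted p = 0.958) and at -0.23 without it (SE 0.17, adjusted p = 0.841). Among 24 zinc transporter rows 3 could be fitted for genotype in each limb and 0 were called. The most abundant, Slc30a7 and Slc39a13, stood at -0.09 (SE 0.23) and 0.10 (SE 0.26) with loading. Slc30a7 lies opposite exons of Gm43106 and Gm6649, and Slc39a13 opposite Psmc3. List medians for genotype in loaded limbs were 0.10 for carbonic anhydrases, 0.05 for heparan sulfate rows and -0.09 for zinc transporters, beside -0.002 over all 6080 rows. In the non-loaded comparison 36 of 6220 rows were called (0.579%).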

How the data were processed

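Per the file headers, the authors deposited 1 table per library with a gene name, a length in bases and a fragment count per row, 47517 rows in each. The counts are raw. Per the submitters' processing notes, STAR 2.4.2a, featureCounts 1.4.6 of Subread and DESeq2 were used with mm10. The annotation release and strand setting are not given in the sources used here. Per the labels' protocols, total RNA (mean integrity number 5.4) was depleted of ribosomal RNA, random-primed and sequenced as single reads of 75 bases.

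Computed here: rows were filtered with filterByExpr (minimum count 10), scaled by TMM and tested over the whole table with robust edgeR 4.0.16 quasi-likelihood F tests in R 4.3.3, Benjamini-Hochberg adjusted, called at adjusted p under 0.05. Genotype comparisons used 8 libraries. Loading comparisons used 16 with mouse as a replicate block. The design text says limbs are paired by mouse, and the 2 limbs of a pair carry the same mouse number. Same-mouse deviations from the group mean correlated at 0.0608 to 0.287. In Ctrl mice 2 and 4 the highest correlation with another mouse, 0.287 and 0.167, was above their own, 0.271 and 0.0608. The block rests on the mouse numbers and the design text, not on these correlations. Members under the filter were tested by exact permutation of CPM. Alternatives were DESeq2 1.42.0, its size factors (RLE), no filter, no ribosomal RNA rows, no replicate block, and each mouse left out. The fits were tested on simulated data. Members and lists were chosen with earlier results of these data known. Named rows were the members, neighbours within 100 kb, called or the 2 most abundant list members, and the 3 rows most correlated with Aph1b or Extl1. Low counts limit precision: 1 fragment is about 1 CPM.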

Additional observations from a re-analysis of the deposited data

How the results depend on the processing

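The NT3 to Ctrl direction of Extl1 and Gm10647, the loading direction of Aph1b and the call of Aph1c in loaded limbs were kept in each alternative run. Directions turned when 1 mouse was left out, in values that were not called in either form. Loading values then ranged from -0.71 to 0.04 for Gm10647 in NT3 (0.04 without NT3 mouse 3), from -1.34 to 0.17 for Extl1 in Ctrl (0.17 without Ctrl mouse 2), from -0.28 to 0.17 for Extl1 in NT3 (0.17 and 0.05 without NT3 mice 1 and 3), from -0.65 to 0.55 for Slc30a2 in Ctrl (0.55 without Ctrl mouse 1) and from -0.20 to 0.57 for Slc30a2 in NT3 (-0.20 without NT3 mouse 4). They ranged from -0.14 to 0.29 for Aph1c in Ctrl (-0.14 and -0.11 without Ctrl mice 1 and 3), from -0.20 to 0.81 for BC050972 in Ctrl (-0.20 without Ctrl mouse 1), and from -0.30 to 0.71 for the BC050972 difference in loading response (-0.30 and -0.16 without Ctrl mouse 4 and NT3 mouse 3). The cause was not tested. DESeq2 values with no adjusted p are left out.

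The log2 ratio of Aph1b to Car12 between genotypes ranged from -1.16 to 0.14 in loaded limbs and from -0.42 to 0.56 in non-loaded limbs when 1 mouse was left out, and was -0.04 in non-loaded limbs with 1 added in place of 0.5. The loading change of the Extl1 to Slc30a2 ratio ranged from -0.96 to 0.05 in NT3 and from -1.21 to 0.37 in Ctrl, and its genotype difference from 1.17 (without Ctrl mouse 2) to 1.94 in loaded limbs and from 0.90 (without Ctrl mouse 4) to 1.96 in non-loaded limbs. Leaving out 1 mouse moved the Slc30a2 difference to between 7.60 and 9.87 CPM in loaded limbs (p up to 0.0571) and between 5.78 and 10.5 CPM in non-loaded limbs.

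Called rows numbered 161 for genotype with loading (119 to 201 leaving out 1 mouse), 36 for genotype without loading (71 with no filter; 12 to 77, with 77, 12, 20 and 14 without Ctrl mice 1, 2 and 3 and NT3 mouse 3), 293 for loading in Ctrl (169 by DESeq2; 163 to 325, with 163 and 188 without Ctrl mice 2 and 3), 30 for loading in NT3 (19 by DESeq2; 17 to 44, with 17 without NT3 mouse 1) and 10 for the difference in loading response (17 with no filter; 7 to 14). Without the replicate block for mouse, 171, 5 and 0 rows were called in the last 3 comparisons, and none of the tested members changed its call; for the last, 335 rows had unadjusted p under 0.05 in edgeR and DESeq2 with the block called 10.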

Other observations

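Rows farther from the members were counted in windows of 5 Mb on each side, a width chosen after the values had been seen. Around Aph1b, 39 rows that were not members were fitted for genotype in loaded limbs, of which 2, Aph1c and the deubiquitinase gene Usp3, were called lower in NT3 and 0 higher, beside 1.33% of all rows called lower. Around Extl1, 50 were fitted and 1, Pigv, an enzyme gene of the anchor of membrane proteins, was called higher and 0 lower, beside 1.32% of all rows called higher. In non-loaded limbs 0 of 38 and 0 of 52 were called in edgeR, with 4 at unadjusted p under 0.05 in each window. For loading in Ctrl, 1 of 45 around Aph1b, Snx22, and 3 of 63 around Extl1, Epb41, Gm26716 and Kdm1a, were called higher, beside 3.07% of all rows. With so few calls, none of these counts is read as differing from the whole table.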
